A study of Homo sapiens with 9 samples.

Results

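FZD2, FZD4, WNT11 and WNT10A are the genes of the WNT ligand and frizzled receptor families that were chosen for differing between interferon gamma-treated and untreated T84 cells. They were taken by symbol, through the RefSeq identifier of each probe set, and each of the 4 is read by 1 probe set. They are 4 of 28 measured genes whose symbols start with WNT (18 genes) or FZD (10 genes), and of 927 genes named on the array in all. The choice rested on the difference between treated and untreated T84, so that difference is described here and not tested.

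WNT proteins are secreted, lipid-modified ligands that bind frizzled receptors, a family of receptors that cross the membrane several times, together with co-receptors of the LRP family. Binding either stabilises beta-catenin, which then switches on target genes with TCF factors, or acts on the cytoskeleton and calcium without beta-catenin. In the intestine this signal keeps stem and progenitor cells dividing at the base of the crypts, and colon carcinomas commonly carry a pathway that is switched on inside the cell.

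The series compared 3 groups of 3 arrays from human colon carcinoma epithelial lines. T84 cells given interferon gamma, a cytokine made by activated lymphocytes, at 100 U/ml over 24 hours stood beside untreated T84 cells of passage 68 and untreated Caco-2 cells of passage 37. Both untreated lines were grown in plates with several wells until nearly confluent, while for the treated cells the sources used here give neither passage nor confluence. The study asked which glycosylation genes accompany the gain of a sialylated CD44 variant epitope under interferon gamma, and Caco-2 served as the line without it. Each group is 1 cell line. Replicates are numbered, with no word on separate cultures, so a p-value here reflects how far these arrays scatter, and that scatter may be technical. In bulk RNA, a change in the share of cells and a change of RNA per cell cannot be told apart.

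Labelled RNA was read on single-colour Affymetrix-type arrays. Values are log2 signals after RMA, a method that summarises the probes of a probe set and equalises arrays, and array medians lay between 6.70 and 6.80. Treatment was visible in the CXCR3 ligands: CXCL9 averaged 11.92 ± 0.49 in treated and 5.79 ± 0.12 in untreated T84 (SD, n = 3 each). Only 3 of 16 listed intestinal epithelial markers were measured, and their mean signal was 10.66 to 10.71 on treated T84, 10.66 to 10.69 on untreated T84 and 7.71 to 7.88 on Caco-2 arrays. LGALS4, an intestinal galectin among them, averaged 12.47 on treated T84 arrays, 13.01 on untreated T84 arrays and 6.91 on those of Caco-2. The markers did not move together with treatment. LGALS4 fell by 0.53 log2 units (limma adjusted p = 0.000241), MUC13, a membrane mucin, rose by 0.40 (0.0104), and MUC2, the goblet cell mucin, differed by 0.16 and did not pass (0.29). The 4 of 12 leukocyte markers measured had mean signals of 5.55 to 5.61 on treated T84, 5.56 to 5.61 on untreated T84 and 5.33 to 5.55 on Caco-2 arrays. The 6 of 13 fibroblast and endothelial markers measured stood at 4.59 to 4.66, at 4.61 to 4.64 and at 5.04 to 5.30 in the same order of groups. The part of cell makeup in the results was not tested. Caco-2 replicate 1 stood farthest from its group, on a component that held 70.9% of the spread within groups.

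The receptor gene FZD2 was lower in treated T84. Its product, frizzled 2, can bind WNT5A. The log2 signal of FZD2 was 6.79, 6.62 and 6.40 in treated T84, against 7.58, 7.59 and 7.52 in untreated T84 and 8.36, 8.05 and 7.96 in Caco-2. No 2 groups overlapped, and treated T84 held the 3 lowest values. The log2 difference between treated and untreated T84 was -0.96 ± 0.12 (SE of the limma fit), or 1.95-fold lower (95% interval 1.60 to 2.37).

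FZD4, which encodes a receptor for WNT ligands and for norrin, a ligand needed by retinal vessels, was the single member that was higher under interferon gamma. Its log2 signal was 6.65, 6.60 and 6.65 in treated T84, against 6.21, 6.13 and 6.36 in untreated T84 and 9.23, 9.21 and 9.13 in Caco-2. Both T84 groups lay far below Caco-2 and did not overlap with each other. The treated minus untreated difference was 0.40 ± 0.06 log2 units (SE), or 1.32-fold higher (95% interval 1.19 to 1.46). Treated replicates 1 and 3 carried the same value to the last deposited digit.

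The ligand gene WNT11, known for directing cell movements in embryos mostly without beta-catenin, was lower in treated T84. WNT11 had log2 signals of 6.89, 6.63 and 7.03 in treated T84, against 7.51 on each of the 3 untreated arrays and 9.32, 8.84 and 8.86 in Caco-2. The groups were fully apart, in the same order as for FZD2. The log2 difference was -0.66 ± 0.14 (SE), or 1.58-fold lower in treated T84 (95% interval 1.26 to 1.98). The 3 untreated values were identical, as in 25 of the 1259 probe sets. For WNT11 the error therefore comes from the other groups and from the spread that limma shares among probe sets.

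WNT10A, a ligand that acts mostly through beta-catenin and is known for its role in teeth, hair and sweat glands, was also lower under interferon gamma. Its log2 signal was 8.57, 8.38 and 8.39 in treated T84, against 8.79, 8.96 and 8.87 in untreated T84 and 6.67, 6.34 and 6.28 in Caco-2. Here untreated T84 was highest and Caco-2 lowest, with no overlap. The difference between treated and untreated T84 was -0.43 ± 0.11 log2 units (SE), or 1.35-fold lower (95% interval 1.13 to 1.60).

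**Figure D1:**
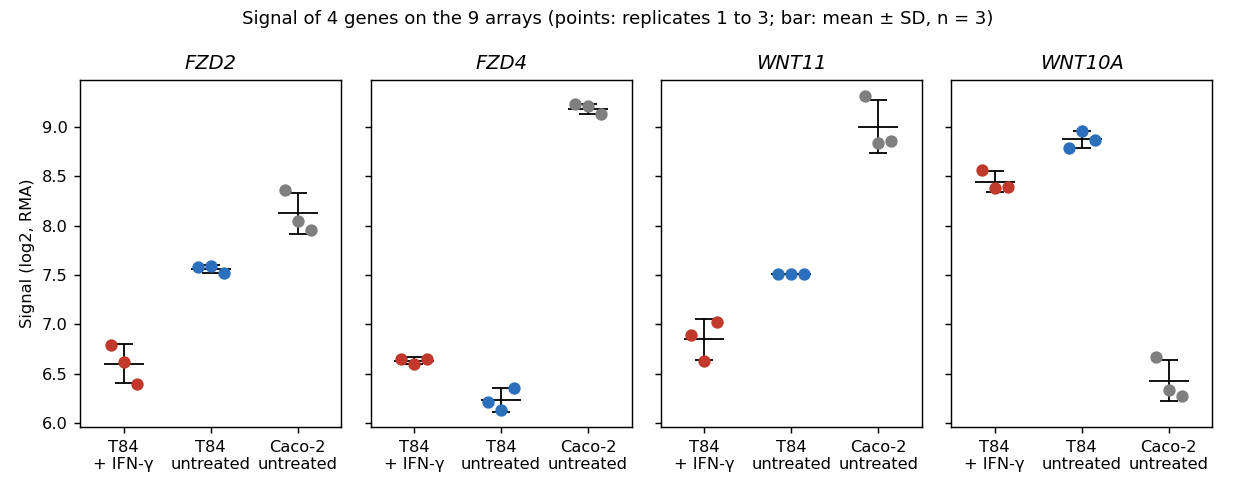
Log2 signal of FZD2, FZD4, WNT11 and WNT10A on each of the 9 arrays, with points for replicates, and bars for the mean and SD of 3 arrays per group. In each panel the 3 groups do not overlap, and FZD4 is the gene whose treated values lie above the untreated ones.

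The 4 are exactly the WNT and FZD genes with a limma adjusted p under 0.05 in this fit, which is taken here as the threshold of the choice. It is one that 10.2% of the 1259 probe sets met (4.37% higher and 5.8% lower). Since the members were taken for passing it, nothing is read from their count. The value just inside was that of WNT10A (adjusted p = 0.0412 in limma), and those just outside were FZD1 (log2 difference -0.27, 0.0747), FZD7 (-0.38, 0.0805) and WNT3 (-0.16, 0.0857). WNT10A and FZD7 lay on opposite sides of the threshold with differences of similar size. Without treated replicate 2 or 3, any 1 of the untreated T84 arrays or Caco-2 replicate 2, WNT10A no longer passed, at adjusted p values of 0.0578 to 0.152. WNT11 did not pass without treated replicate 1 or 2 or any untreated T84 array (0.0546 to 0.0761), whereas FZD2 and FZD4 passed without each of the 9 arrays in turn. These refits reuse the arrays that chose the members, so they describe the choice and give it no independent support.

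Regulatory sequence was read for the members that move in opposite directions and have an entry in the promoter table of RefSeq. Each entry of that table holds 250 bases before to 50 bases after the start, on build GRCh38.p14. It matched 2 of the 4 members, FZD4 and WNT10A, and not FZD2 or WNT11. The promoter of CXCL10, a chemokine gene that rose with treatment in these cells, is shown beside them. Each is written 5′ to 3′ on the strand of the gene, with FZD4 at chr11:86955346-86955645 (minus strand), WNT10A at chr2:218880602-218880901 (plus strand) and CXCL10 at chr4:76023448-76023747 (minus strand). Capitals mark the motif matches described after the sequences.
FZD4 promoter: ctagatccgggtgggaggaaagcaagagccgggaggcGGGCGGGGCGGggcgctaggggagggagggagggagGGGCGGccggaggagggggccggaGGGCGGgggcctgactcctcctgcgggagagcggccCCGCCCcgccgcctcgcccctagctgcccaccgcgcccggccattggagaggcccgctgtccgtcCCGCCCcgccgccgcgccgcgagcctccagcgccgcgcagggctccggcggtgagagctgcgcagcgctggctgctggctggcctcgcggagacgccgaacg
WNT10A promoter: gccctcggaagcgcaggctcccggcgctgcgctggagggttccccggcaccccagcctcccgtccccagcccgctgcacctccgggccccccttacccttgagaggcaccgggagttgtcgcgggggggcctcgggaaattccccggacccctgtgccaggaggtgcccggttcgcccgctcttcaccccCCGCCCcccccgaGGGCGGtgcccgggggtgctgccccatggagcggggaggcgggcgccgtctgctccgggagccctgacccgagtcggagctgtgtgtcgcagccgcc
CXCL10 promoter: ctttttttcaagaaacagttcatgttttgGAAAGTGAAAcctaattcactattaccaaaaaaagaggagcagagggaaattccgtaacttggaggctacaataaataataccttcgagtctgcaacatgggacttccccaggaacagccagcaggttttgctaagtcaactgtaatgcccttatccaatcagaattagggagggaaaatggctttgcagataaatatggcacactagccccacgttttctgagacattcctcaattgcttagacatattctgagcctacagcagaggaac

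Among the motifs searched on both strands were the core of the interferon-stimulated response element, which is GAAA, any 2 bases and GAAA again, and GGGCGG, the GC box. The response element core was not found in the FZD4 or WNT10A stretch, and the capitals in those stretches are GC boxes, 6 in FZD4, where the first 2 overlap, and 2 in WNT10A. The CXCL10 stretch held 1 match of the response element core and no GC box. Of the 35116 entries of that table, 3.57% held the response element core and 45.0% GGGCGG. Over the 1027 entries of measured genes these shares were 3.51% and 56.5%. GC made up 79.7% of the FZD4 stretch and 76.7% of the WNT10A stretch, against a median of 62.3% over the 1027 entries of measured genes. A motif match is a description of letters, and a window of this size leaves out distant sites.

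Most other WNT and frizzled genes had small differences between treated and untreated T84. The 24 others had a median log2 difference of -0.02 between treated and untreated T84, and 19 of them lay within 0.11 of 0. They are the genes left once those that passed were taken out, so their small differences follow partly from the choice. Over all 28 WNT and FZD genes the median was -0.04, beside -0.01 over all probe sets. FZD7, a receptor of intestinal stem cells in mice, had log2 signals of 8.29, 8.11 and 8.16 in treated T84, against 8.44, 8.61 and 8.67 in untreated T84. FZD1 was at 6.31, 6.21 and 6.20 in treated T84, against 6.37, 6.69 and 6.47 in untreated T84. WNT3, which Paneth cells supply to stem cells in mice, was at 6.88, 6.82 and 6.88 in treated T84, against 7.01, 7.04 and 7.02 in untreated T84. Each of these 3 was lower on all treated arrays than on any untreated one. Treated and untreated arrays did not overlap for 10 of the 28 WNT and FZD genes, beside 27.5% of all probe sets. These 10 include the 4 members, which were chosen on this difference. The other 6 were FZD1, FZD7, WNT3, WNT6 and WNT7B, which were lower in treated T84, and WNT5B. For WNT5B treated T84 lay above untreated T84 by 0.07 ± 0.06 (SE).

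FZD5, the receptor through which WNT signals mature Paneth cells in mice, had log2 signals of 10.56, 10.37 and 10.41 in treated T84, against 10.48, 10.58 and 10.59 in untreated T84. Its difference was -0.10 (95% interval -0.25 to 0.05). Under quantile normalization FZD5 stood at -0.20, with an adjusted p of 0.0378. Of the 24 other genes, 20 had intervals that lay within 0.5 log2 units on both sides of 0. FZD6 had the widest, -0.96 to 0.83, so changes of that size were not detectable for FZD6 with these arrays. WNT16, WNT5A and FZD8 stayed below a signal of 5 in every group, near the low end of the table, where a probe set may not follow its transcript. Calls of presence or absence were not used here.

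**Figure D2:**
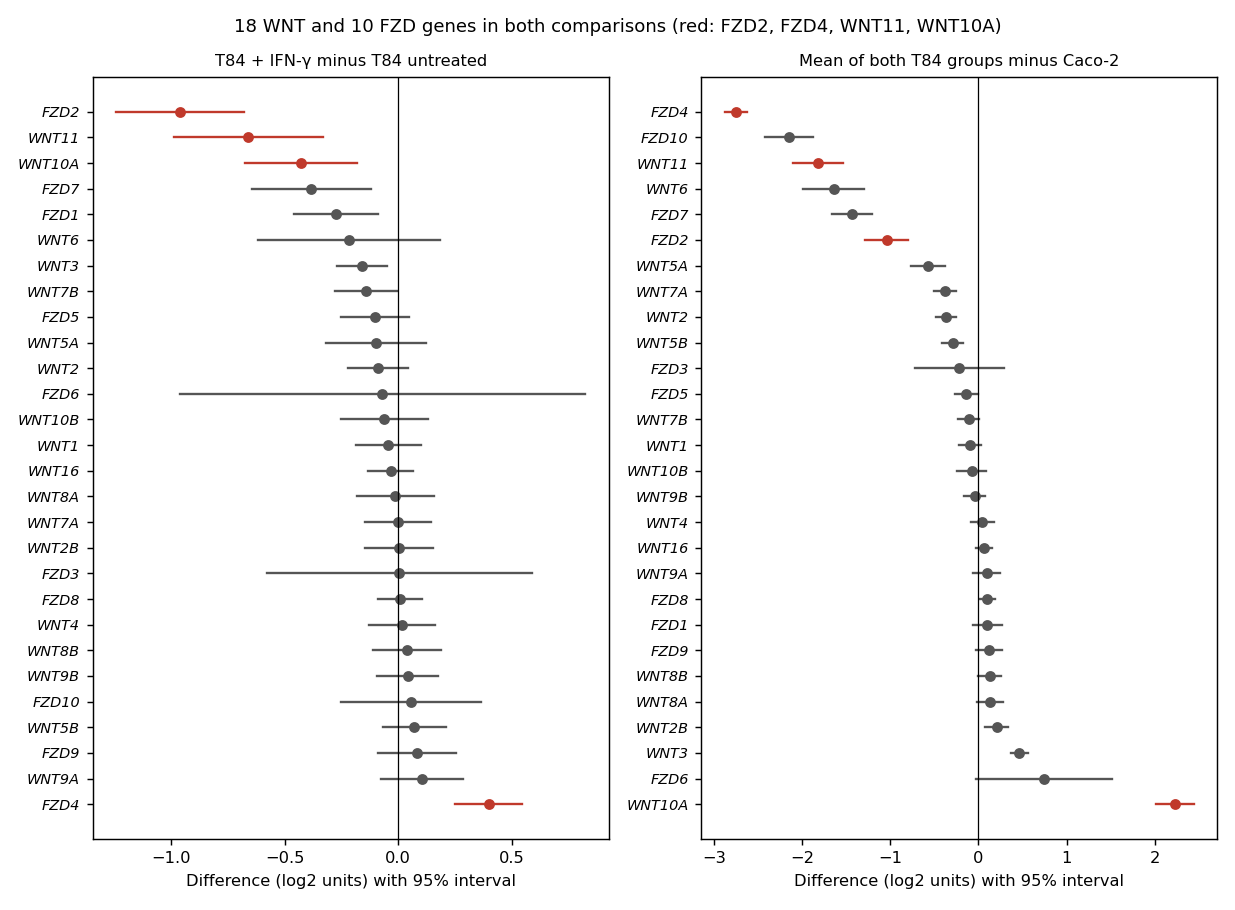
Log2 differences with 95% intervals for 18 WNT and 10 FZD genes, between treated and untreated T84 on the left and between the mean of both T84 groups and Caco-2 on the right, each sorted by size and with FZD2, FZD4, WNT11 and WNT10A in red. On the left 3 red genes lie at the low end and FZD4 at the high end, because they were chosen on that axis. On the right FZD4 is the lowest gene and WNT10A the highest.

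The second comparison asked how the lines differ, with the mean of both T84 groups set against Caco-2. In a balanced design with equal spread in both T84 groups, this difference is uncorrelated with that between treated and untreated T84. The SDs in treated and untreated T84 were 0.20 and 0.04 for FZD2, and 0.03 and 0.12 for FZD4. For the members the 2 differences may therefore not be fully uncorrelated. The p-values of both share 1 residual spread per probe set, and a choice by p favours genes of small error here too. All 4 genes differed between the lines, where 48.8% of all probe sets did (22.5% higher and 26.3% lower in T84). A gene taken from this array at random would thus pass about as often as not, and the sizes say more than the count. Marker genes also moved with the line, with all 3 measured epithelial and 2 of 4 leukocyte markers higher and 4 of 6 fibroblast and endothelial markers lower in T84.

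FZD4 was 6.74-fold lower in T84 than in Caco-2 (95% interval 6.17 to 7.36), a log2 difference of -2.75 ± 0.06 (SE; limma adjusted p = 2.05e-09, n = 6 and 3). WNT11 was 3.54-fold lower (2.91 to 4.31; limma adjusted p = 3.8e-06). FZD2 was 2.06-fold lower (1.74 to 2.44; limma adjusted p = 5.06e-05). WNT10A went the other way, 4.70-fold higher in T84 (4.06 to 5.45; limma adjusted p = 1.76e-07). In each case all 6 T84 arrays lay on the same side of all 3 Caco-2 arrays. Groups without overlap were common, at 53.5% of all probe sets between treated T84 and Caco-2 and 49.6% between untreated T84 and Caco-2. Leaving out any 1 array kept these 4 calls, with log2 differences of -2.79 to -2.73 for FZD4, -1.91 to -1.67 for WNT11, -1.12 to -0.92 for FZD2 and 2.16 to 2.35 for WNT10A.

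Among the other 24 genes, 2 were higher and 7 lower in T84, and 15 did not pass. FZD10 showed the largest of these differences. Its log2 signal was 4.67, 4.61 and 4.49 in treated and 4.46, 4.70 and 4.44 in untreated T84, against 7.01, 6.47 and 6.66 in Caco-2. This was 4.44-fold lower in T84 (3.69 to 5.35; limma adjusted p = 9.22e-07). The T84 arrays lay under a signal of 5 for FZD10, WNT2 and WNT5A, near the low end of the table, so these folds may understate the difference. WNT6, a ligand gene, was 3.12-fold lower (2.46 to 3.97) and FZD7 2.70-fold lower (2.31 to 3.16), with limma adjusted p values of 2.59e-05 and 4.2e-06. The ligand genes WNT5A (-0.57 ± 0.08), WNT7A (-0.38 ± 0.06), WNT2 (-0.37 ± 0.05) and WNT5B (-0.29 ± 0.05) were lower by smaller log2 differences (SE).

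WNT3 was 1.38-fold higher in T84 than in Caco-2 (1.29 to 1.48) and WNT2B 1.16-fold (1.06 to 1.27), with limma adjusted p values of 2.15e-05 and 0.0141. The WNT2B call was lost without Caco-2 replicate 3 (adjusted p = 0.0591). FZD5 differed by a log2 value of -0.14 ± 0.06 (SE; limma adjusted p = 0.0738). FZD6 had log2 signals of 8.89, 8.40 and 8.27 in treated and 8.79, 8.74 and 8.23 in untreated T84, against 6.85, 8.40 and 8.19 in Caco-2, where replicate 1 stood alone. Its difference of 0.74 (limma adjusted p = 0.104) became 0.26 without Caco-2 replicate 1 (0.315) and 1.04 without Caco-2 replicate 2, where it passed (0.0476). FZD3 passed without Caco-2 replicate 1, at -0.52 (0.0212), against -0.22 with it (0.447), and was at 0.02 without Caco-2 replicate 2.

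Small differences between the lines depended on the scaling. With each array centred on 51 ribosomal protein probe sets, the median difference of all probe sets moved to 0.39, against 0.02 as deposited. Counts among the other 24 genes became 16 higher and 4 lower. WNT5B then turned to 0.075, while WNT2 and WNT7A lost their calls. FZD4, WNT11, FZD2 and WNT10A kept their direction and call, at -2.39, -1.46, -0.68 and 2.60.

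Seen from Caco-2, interferon gamma went with 2 kinds of shift. The log2 difference of FZD2 from Caco-2 was -1.52 ± 0.12 for treated cells and -0.56 ± 0.12 for untreated T84 (SE). The distance was thus larger with treatment. As a share of the untreated log2 difference this shift was -171%, with minus for a shift away from Caco-2. WNT11 was likewise farther from Caco-2, at -2.15 ± 0.14 in treated and -1.49 ± 0.14 in untreated T84. FZD4 was nearer, at -2.55 ± 0.06 in treated and -2.95 ± 0.06 in untreated T84, a shift of 13.5% of the untreated log2 difference. WNT10A was nearer too, at 2.02 ± 0.11 in treated and 2.45 ± 0.11 in untreated T84, a shift of 17.5%. None of the 4 crossed the Caco-2 level. Both distances of a gene share the Caco-2 arrays, and each holds an arm of the difference that chose the members, so they are given as values.

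**Figure D3:**
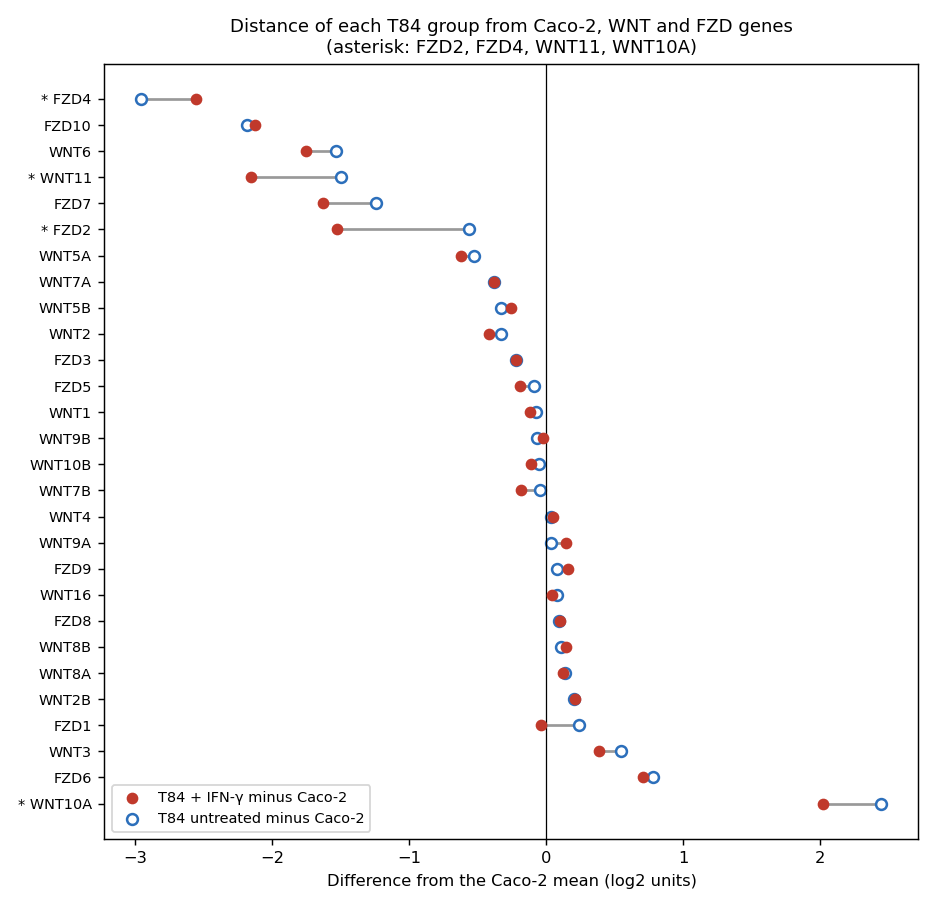
Log2 difference from the Caco-2 mean for treated T84 (filled) and untreated T84 (open), for 28 WNT and FZD genes sorted by the untreated value, with FZD2, FZD4, WNT11 and WNT10A marked by an asterisk. The filled point lies farther from 0 than the open one for FZD2 and WNT11, and nearer to 0 for FZD4 and WNT10A.

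For the wider pathway, 14 of 82 listed genes were measured, 11 of them heparan sulfate proteoglycans and sulfatases. These proteoglycans hold WNT ligands at the cell surface. In treated against untreated T84, 1 of the 14 fell and 13 did not pass, against a background of 10.2%. The gene that fell was SDC1, the epithelial syndecan. SDC1 averaged 9.66 ± 0.10 in treated and 10.18 ± 0.11 in untreated T84 (SD, n = 3 each), a log2 difference of -0.52 ± 0.11 (SE; limma adjusted p = 0.0187). Its call was lost without treated replicate 1 or 2 or untreated T84 replicate 2 or 3 (adjusted p from 0.061 to 0.0782). SFRP1, a secreted decoy that binds WNT ligands, was at 0.06 ± 0.04. SMO, a receptor of the frizzled class that carries the hedgehog signal and not that of WNT, was at 0.13 ± 0.17. Neither passed.

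CD44 is a WNT target gene in the gut and the carrier of the epitope studied. Its log2 difference between treated and untreated T84 was -0.29 ± 0.11 (SE) and did not pass (limma adjusted p = 0.181). All treated arrays lay below all untreated ones, where 27.5% of all probe sets had groups without overlap. CD44 passed with array weights, at -0.34 (limma adjusted p = 0.0207). It did not pass with any 1 array left out (0.0724 to 0.486). The median of the 14 genes was 0.00, beside -0.01 over all probe sets. Genes of WNT secretion, LRP co-receptors, R-spondins, Dickkopf inhibitors, Dishevelled and TCF factors were not analysed here. Of the listed genes, 0 of 2 for secretion and 0 of 8 other ligands had a named probe set. Among cytoplasmic genes it was 0 of 13, and among nuclear genes 0 of 8. SMO was the 1 measured of 9 co-receptors and non-frizzled receptors, and SFRP1 the 1 of 20 inhibitors. Although SMO does not carry the WNT signal, it is counted among the 14 genes.

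Between the lines, 3 of these 14 genes were higher and 7 lower in T84, and 4 did not pass, against a background of 48.8%. Higher were CD44 (23.1-fold, 19.9 to 26.9), the glypican GPC4 (14.0-fold, 12.3 to 16.0) and SDC1 (1.33-fold, 1.15 to 1.55). For SDC1 the log2 difference from Caco-2 was 0.15 ± 0.11 in treated T84, whose arrays overlapped those of Caco-2, and 0.68 ± 0.11 in untreated T84 (SE), whose arrays did not. Lower were GPC3, a glypican that binds WNT ligands and frizzled receptors (31.1-fold, 27.8 to 34.8), GPC5 (4.87-fold, 3.20 to 7.40), SMO (3.53-fold, 2.77 to 4.49) and GPC1 (2.41-fold, 2.05 to 2.82). SDC4 (2.29-fold), SULF2, an endosulfatase that trims heparan sulfate and can release WNT (2.24-fold), and SDC2 (1.97-fold) were lower as well. GPC5 and SDC2 in T84, and GPC4 on average in Caco-2, lay under a signal of 5, so their folds may understate the difference. All 10 had limma adjusted p values at or below 0.00634. SFRP1, SULF1, SDC3 and GPC6 differed by 0.03 to 0.07 log2 units.

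**Figure D4:**
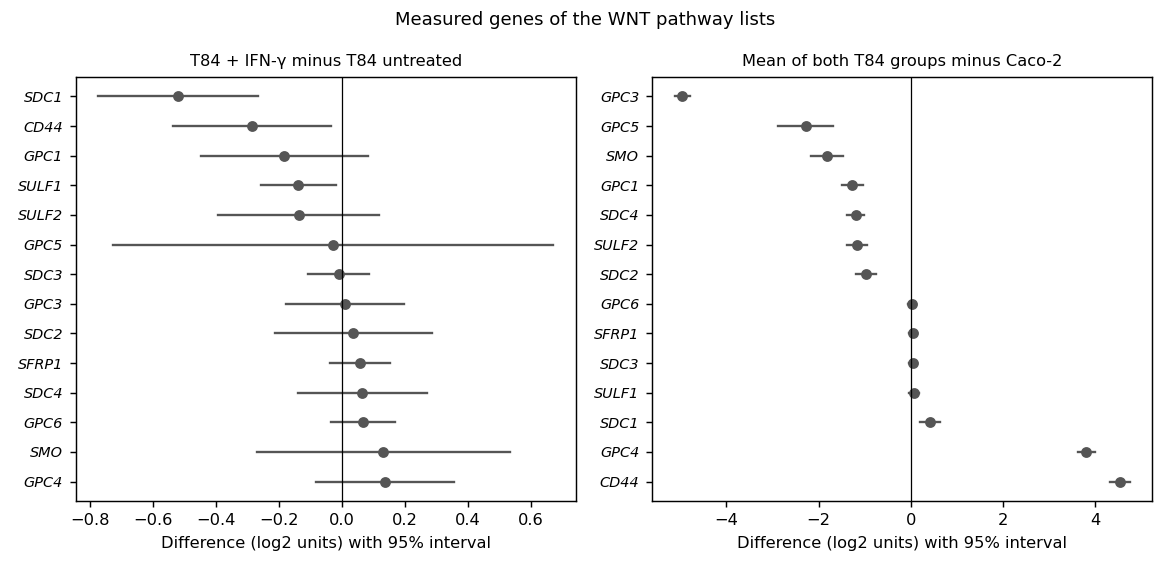
Log2 differences with 95% intervals for the 14 measured genes of the pathway lists, between treated and untreated T84 on the left and between the mean of both T84 groups and Caco-2 on the right. SDC1 is lowest on the left at -0.52, and the right panel runs from GPC3 at -4.96 to CD44 at 4.53.

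Patterns most like each member were sought over the 9 arrays among 926 other genes, by the root mean square difference after centring each gene on its own mean. Nearest to FZD2 were SULT1A2, at 0.16 log2 units (Pearson r = 0.983), IHH, the ligand gene Indian hedgehog (0.18, r = 0.959), and SULT1A3 (0.21, r = 0.946). The sulfotransferase genes SULT1A2 and SULT1A3 are close copies, and their probe sets are of types that may read related transcripts. All 3 had lower means in treated than in untreated T84, and highest means in Caco-2. Nearest to WNT11 were B4GAT1 (0.16, r = 0.987), RPL34 (0.19, r = 0.979) and TPST2 (0.21, r = 0.972), with the same order of means. WNT11 and B4GAT1 had treated minus untreated differences of -0.66 and -0.60. The search used the treated and untreated T84 arrays too, so it favours genes with the same direction as the member.

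Nearest to FZD4 were SIGLEC6 (0.17, r = 0.992), CHST3 (0.22, r = 0.991) and CHST13 (0.26, r = 0.980). These follow FZD4 in the distance between the lines, while their treated minus untreated differences were 0.10, 0.12 and 0.00, against 0.40 for FZD4. Nearest to WNT10A were ARSD (0.18, r = 0.995), IDS (0.21, r = 0.996) and GCNT3 (0.23, r = 0.981), with treated minus untreated differences of -0.27, -0.22 and 0.04, against -0.43 for WNT10A. The points behind each r fall into 3 groups, so r mostly reflects the step between groups and is given as a description.

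**Figure D5:**
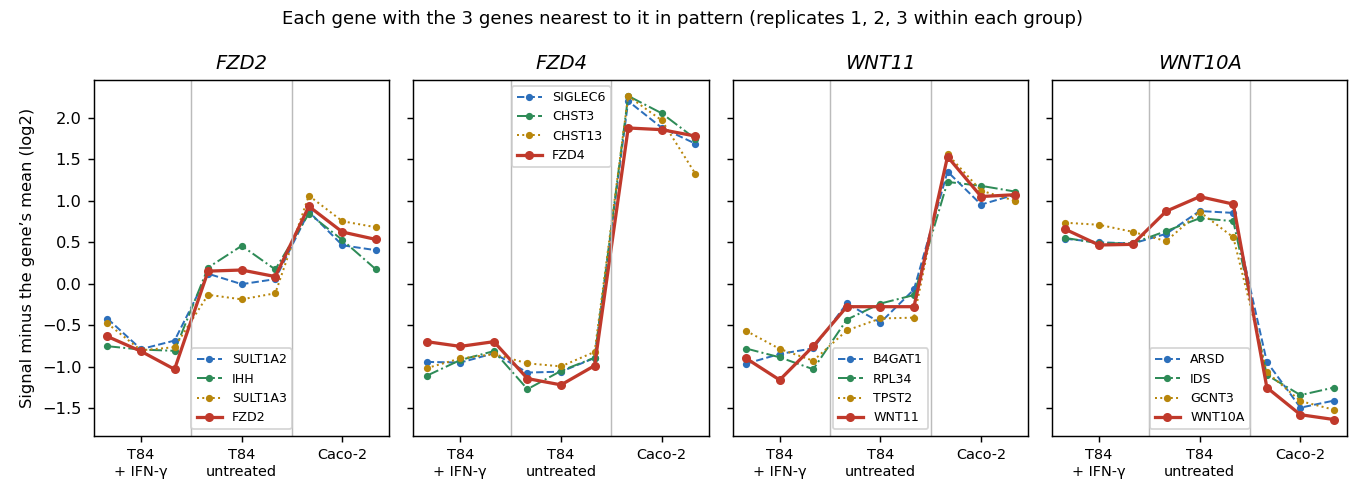
Log2 signal of each member minus its mean over the 9 arrays (red), with the 3 genes nearest in pattern, in treated T84, untreated T84 and Caco-2 (replicates 1 to 3 within each). For FZD2 and WNT11 the means of the neighbours, picked on these same arrays, also lie lower in treated than in untreated T84. The drop is 0.30 (TPST2) to 1.06 (IHH). The neighbours of FZD4 follow mainly the step to Caco-2.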

How the data were processed

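The 9 arrays were grouped by their labels. What was deposited is a log2 signal for each probe set, and the submitters' processing notes name RMA. The sources used here give no RMA version, filter or genome build, so no probe set positions are printed. Promoter sequences and their positions are those of RefSeq. The result for 1 further promoter motif is not reported here. Of 1259 probe sets, 1043 had exactly 1 symbol through the RefSeq table (GRCh38.p14). The other 216 stayed in every test unnamed. A gene with several probe sets was read by the brightest.

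A linear model of group was fitted over all arrays using limma 3.58.1 (R 4.3.3; 6 residual and 2.12 prior degrees of freedom), with two-sided tests. P-values were adjusted over all 1259 probe sets by Benjamini-Hochberg, and 0.05 was the threshold. The number of arrays limits the precision, with a median SE of 0.08 log2 units between treated and untreated T84 and 0.07 between T84 and Caco-2. Equal values on at least 2 arrays occurred at 559 probe sets. The fit was tested on simulated data.

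The members and gene lists were chosen with earlier results of these data known. Named were the members, all other WNT and FZD genes, pathway genes that passed or encode co-receptors, inhibitors or secretion factors, the 3 genes nearest to each member, and CXCL9, CXCL10 and CXCL11. With treatment, CXCL10 was higher by 5.11 and CXCL11 by 4.04 log2 units. LGALS4, MUC2, MUC13, SULF1, SDC3 and GPC6 were named after their values were seen. Alternatives changed the arrays fitted, the replicate block, the moderation, the weights, the scaling, the filter on dim probe sets, the threshold and the choice of probe set. The main fit did not pair arrays by number. Differently numbered treated and untreated T84 arrays deviated from their groups with correlations of -0.51 to 0.40. The replicate block included Caco-2, so pairing within T84 alone was not tested.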

Additional observations from a re-analysis of the deposited data

How the results depend on the processing

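Over 21 alternatives, FZD2 (-1.06 to -0.81) and FZD4 (0.35 to 0.55) kept direction and threshold between treated and untreated T84. WNT11 (-0.78 to -0.51) stayed past the threshold in 15 alternatives and WNT10A (-0.49 to -0.28) in 10. These counts reuse the difference that chose the members and are a description of that choice. For the mean of both T84 groups against Caco-2, all 4 kept direction and threshold in each alternative run. With treated or untreated T84 alone the direction was the same in the deposited values, and this was not crossed with the other alternatives. Same-numbered treated and untreated arrays deviated from their groups with correlations of 0.39, -0.02 and 0.56, which does not settle pairing. With the replicate block FZD2, FZD4 and WNT11 passed and WNT10A did not (limma adjusted p = 0.0662), and 0 genes of the pathway list fell.

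Centring on ribosomal protein genes moved the treated minus untreated differences of FZD4 to 0.55 and WNT10A to -0.28 (limma adjusted p = 0.0756), with 289 probe sets higher and 2 pathway genes higher. It shifted the median of all probe sets to 0.14, against -0.01 as deposited, and differences relative to that median were unchanged by construction. Against Caco-2 it gave 904 probe sets higher and 194 lower, 16 and 4 of the other WNT and FZD genes, and 7 pathway genes higher. The sign turned for FZD3 (0.15), FZD5 (0.23), WNT1 (0.27), WNT10B (0.29), WNT5B (0.075), WNT7B (0.26) and WNT9B (0.32). The cause was not tested.

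At an adjusted p of 0.01, 36 probe sets fell with treatment, 2 WNT and FZD genes passed, 0 pathway genes fell, and 1 other WNT or FZD gene was higher in T84. Fitting only the 6 arrays compared let 2 pathway genes fall and FZD7 and WNT3 pass beside the members. Array weights gave 87 probe sets higher and 144 lower with treatment, 8 WNT and FZD genes passing, 2 pathway genes lower, and 6 other WNT and FZD genes higher in T84. Quantile normalization gave 4 of the last kind, let FZD5 and FZD7 pass with treatment and ended the WNT10A call (0.0655), as did leaving out 3 arrays that deviated together (0.054), a check added after the data were seen, which also gave 4. Among probe sets brighter than the median, by its construction a smaller list, 213 were lower in T84, with 0 higher and 3 lower among the other WNT and FZD genes.

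Leaving out each array in turn gave 45 to 70 probe sets higher and 40 to 108 lower with treatment, 2 to 5 WNT and FZD genes passing, 1 to 5 other WNT and FZD genes higher and 7 to 8 lower in T84, and 0 to 2 pathway genes lower with treatment. The 5 genes higher came without Caco-2 replicate 1 and the 1 without Caco-2 replicate 3. The count of 2 came without treated replicate 2, untreated T84 replicate 2 and untreated T84 replicate 3. Pathway genes lower with treatment were 0 without treated replicates 1, 2 and untreated T84 replicates 2, 3 in turn, and 2 without untreated T84 replicate 1. Background correction was not run as an alternative.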
